A study of Mus musculus with 12 samples.

Results

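The stage comparison set untreated pachytene and diplotene cells (PD) against untreated leptotene and zygotene cells (LZ), both germ cells of C57Bl mice that carry tdTomato in the germ line, isolated by flow cytometry. Each side had 3 libraries from 3 independent experiments, 6 of the 12 libraries of the series. The other 6 were LZ cells given 0.3 mM octyl-L2HG and PD cells given 24 mM oxamate. They entered the scaling of libraries and the estimate of the spread, but not the contrast. Where only the 6 untreated libraries were fitted, the scaling was redone on them alone. Untreated LZ cells had been cultured for 6 days and untreated PD cells for 48 hours, so stage and time in culture cannot be told apart. The sources used here do not give the promoter that drives tdTomato, the age of the mice or the number of animals per experiment. A gene was kept where its mean normalized count over the 6 libraries was at least 10, which left 17187 of 49216 genes with counts. Total counts were 10532504 to 15903788 in LZ libraries and 15202579 to 21275486 in PD libraries. Values below are normalized counts per library in the order A, B and C, or means ± SD with n = 3, and log2 fold changes are PD minus LZ on the log2(normalized count + 1) scale.

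Male meiosis begins with a long prophase. In leptotene and zygotene the chromosomes condense onto axes, programmed DNA breaks are made and homologous chromosomes find each other. In pachytene the homologs are fully paired, breaks are repaired into crossovers, and the largely unpaired X and Y are silenced in the sex body; in diplotene the homologs begin to separate. Pachytene spermatocytes also transcribe many genes whose proteins are used only later, in the spermatid, and store the messages on RNA-binding proteins. A gene said below to have risen or fallen had a limma adjusted p under 0.05 over all genes tested, and its direction is that of PD relative to LZ. A gene with a mean under 10 in either stage was kept through the other stage and had to be higher there.

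The stage labels were checked against marker lists. Of 28 tested leptotene and zygotene markers 22 fell and 4 rose, with a median log2 fold change of -2.93, and of 33 pachytene and diplotene markers 27 rose and 3 fell, with a median of 3.64. Over all 17187 genes 51.0% rose and 38.7% fell, with a median of 0.51. Stra8, the retinoic acid target that starts meiosis, was counted at 641, 1107 and 744 in LZ libraries and at 4.66, 0 and 1.70 in PD libraries. Pou5f2, a POU-domain factor of spermatocytes, was counted at 0, 1.17 and 0 in LZ libraries and at 1317, 1639 and 1487 in PD libraries. For both genes the libraries of the stages did not overlap. The 4 early markers that rose included Rec8, the meiotic cohesin subunit, 6.60-fold, and Mei1, needed for DNA breaks. The 3 late markers that fell included Tex15, at 3652, 3453 and 5621 in LZ against 356, 511 and 768 in PD.

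Markers of neighbouring and somatic cells were measured in the same libraries. Of 33 round spermatid markers 33 rose, and together they took 0.0342 to 0.0411% of counts in LZ libraries and 0.715 to 0.773% in PD libraries. Of the 33, 20 reached a mean of 10 in PD alone and so had to be higher there to be kept. The part of spermatids in the results was not tested. Tnp1 and Tnp2, transition proteins of the elongating spermatid, stood at 1519 and 2612 normalized counts in PD and at 3.01 and 10.4 in LZ. Spermatogonia markers took 0.0454 to 0.0518% of counts in LZ and 0.0911 to 0.104% in PD, of which most in PD was Dmrtb1, a factor also used in meiosis. Of 23 Sertoli cell markers 15 stayed under a mean of 10. Sox9 and Wt1, which define Sertoli cells, had 5 and 12 raw counts in all LZ libraries together and 1 and 0 in PD, Fshr had 0 in both, and the Leydig cell hormone Insl3 had 0 in both. Sertoli markers took 0.0354 to 0.0395% of counts in LZ and 0.00133 to 0.00164% in PD, in LZ nearly all of it Ctsl, a lysosomal protease, at 4471 ± 327. Peritubular and stromal markers took 0.0238 to 0.0284% in LZ and 0.00794 to 0.0103% in PD, led by fibronectin (Fn1) at 2807 ± 159 in LZ and by the smooth muscle actin Actg2 at 1156 in PD. Endothelial and leukocyte markers took 0.00434 to 0.00498% in LZ and 0.0108 to 0.0126% in PD, led by Aif1 at 1482 ± 152 in PD, while the pan-leukocyte marker Ptprc had 6 and 45 raw counts and C1qa had 2 and 0. In pooled cells such as these, fewer cells of a type and less RNA per cell cannot be told apart.

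Levels correlated far less between the stages than within them. Across the tested genes, Pearson correlations of log2 values were 0.987 to 0.989 between LZ libraries and 0.988 to 0.990 between PD libraries. Between a library of each stage they were 0.394 to 0.407. These values describe genes that share libraries and are not independent, and they include genes kept through 1 stage alone, which had to differ. In all, 8772 genes rose and 6645 fell, and in 8772 (51.0%) all PD libraries lay above all LZ libraries and in 6671 (38.8%) below. At least 16-fold rises were called for 3898 genes (22.7%) and falls of that size for 1317 (7.66%). The 3898 genes held 0.644% of normalized counts in LZ and 33.2% in PD, and the 1317 genes held 10.9% in LZ and 0.175% in PD. Extreme rises were also more numerous, with 669 genes at 256-fold or more against 66 falls of that size. Among all genes with counts, 5234 reached a mean of 10 in PD alone and 2552 in LZ alone. Those of them that were kept had to be higher in that stage. The numbers of rises and falls therefore depend in part on the filter. The middle of the genes moved with the scaling of libraries, from a median of 0.51 here to -0.059 with total-count scaling, under which 7660 genes rose and 7900 fell.

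**Figure D1:**
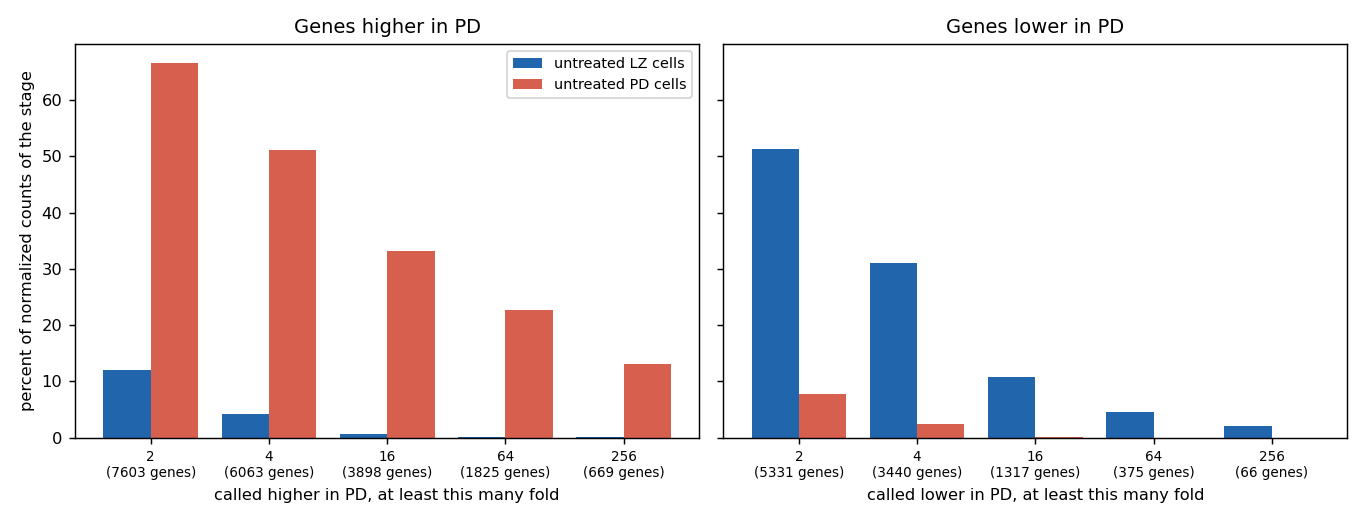
Percent of all normalized counts of a stage (y axis) held by the genes called higher (left panel) or lower (right panel) in PD by at least the fold on the x axis, with the number of genes in brackets; blue bars are untreated LZ and red bars untreated PD. The 3898 genes at least 16-fold higher go from 0.644% of LZ counts to 33.2% of PD counts.

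Genes seen in one stage and listed at 0 in all libraries of the other were mostly late. Of the genes kept, 933 had no count in LZ and a count in every PD library, 491 of them annotated as lncRNA and 274 protein-coding, and 119 had no count in PD and a count in every LZ library, 49 of them X-linked. A gene near 0 in 1 stage could enter only through its level in the other, so these genes had to differ. The numbers depend on having 3 libraries, as they were 1415 without LZ A for the first kind and 206, 191 and 213 without PD A, B and C for the second. Depth enters too, as a raw count of 0 is reached more easily in a smaller library. Total counts were 10532504 to 15903788 in LZ libraries and 15202579 to 21275486 in PD libraries. With a mean of at least 1000 normalized counts as the cut, 3269 genes were counted in LZ, 3756 in PD and 1848 in both; at 10000 the numbers were 109, 278 and 36.

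**Figure D2:**
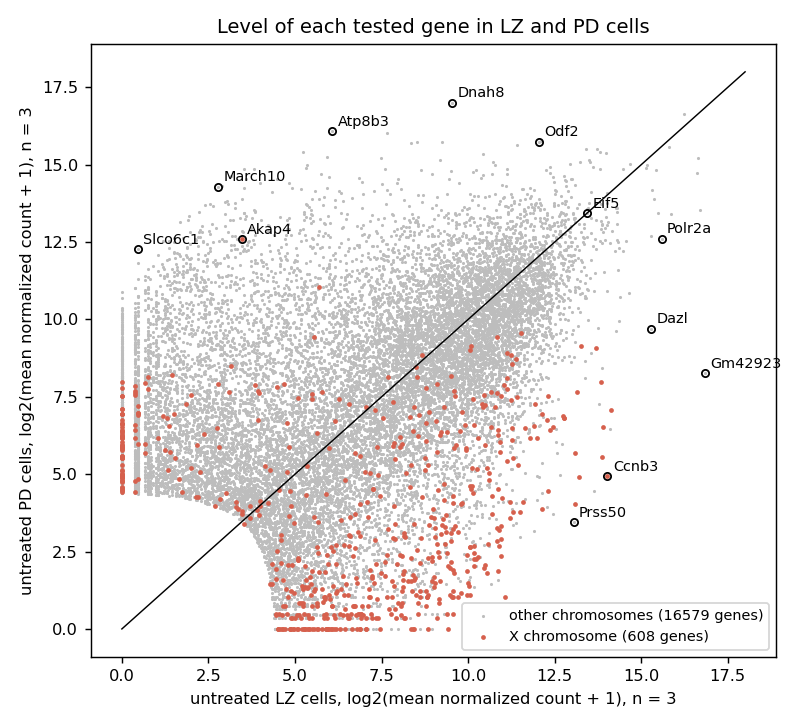
Mean level of each tested gene in untreated LZ (x axis) and untreated PD (y axis), both as log2(mean normalized count + 1) with n = 3; the line marks equal levels, red points are the 608 tested X-linked genes, grey points the other genes, and circled genes are named in the text. Eif5 lies near the line, Dnah8 and Atp8b3 far above it and Gm42923, Dazl and Ccnb3 far below it.

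The 15 genes with the most counts differed almost wholly between the stages, with 2 genes in both sets, among them Pabpc1. In PD the most counted gene was Dnah8, an outer-arm dynein heavy chain of the sperm tail, at 811, 638 and 788 in LZ and 125120, 134155 and 133251 in PD. Atp8b3, a phospholipid flippase of the acrosome, was counted at 96.5, 41.1 and 60.8 in LZ and at 70731, 69522 and 67599 in PD. Hspa2, the meiotic HSP70 chaperone, was counted at 15899, 8118 and 8777 in LZ and at 46221, 48119 and 46514 in PD. The PD libraries were close to each other for all of these, and in LZ library A was the highest of its group for each. The rest of the PD set included Ldhc, the lactate dehydrogenase of germ cells, the RNA-storage proteins Ybx2 and Ybx3, Odf2 of the outer dense fibres, the glucose transporter Slc2a3, Fhl4, Phf7, a reader of histone marks in spermatids, the ubiquitin ligase Trip12, Qrich2, a flagellar protein, and the chaperonin subunit Tcp1. Of the 15, 14 rose.

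In LZ the most counted gene was Gm42923, a locus of the TEC class, which awaits experimental testing, on the minus strand of chromosome 3 (37392206 to 37395101, GRCm38), at 153965, 91958 and 108039 in LZ and 243, 282 and 390 in PD. It lies inside the span of Fgf2 on the opposite strand, and as the sources used here do not say whether counting used strand, reads of the overlapping genes cannot be told apart. Polr2a, the largest subunit of RNA polymerase II, was counted at 58801, 46507 and 42610 in LZ and at 5564, 6125 and 7062 in PD. Dazl, an RNA-binding protein needed for germ cell translation, was counted at 43246, 31942 and 44725 in LZ and at 718, 746 and 1032 in PD. No LZ library overlapped a PD library for these genes, and the fall was 386.5-fold for Gm42923, 7.89-fold for Polr2a and 48.1-fold for Dazl. The set also held the chaperones Hspa5, Calr, Hsp90b1 and Hsp90aa1, the mitochondrial messages mt-Co1, mt-Cytb and mt-Nd1, the RNA helicase Ddx5 and the translation factor Eif4g2, and 12 of its 15 genes fell. Gm42418, which overlaps a gene related to ribosomal RNA, fell from 102875 ± 5689 to 38302 ± 5579, a call lost without LZ A or B or PD B (adjusted p = 0.0583, 0.0644 and 0.0587).

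Counts grow with the length of a message, so levels of different genes were also set against exonic length. Per kilobase of exon, the highest PD messages were Ldhc at 42550 normalized counts, Ybx2 at 29236, Ropn1l, a protein of the sperm fibrous sheath, at 22110 and Rsph1, a radial spoke protein, at 21582. Their LZ levels per kilobase were 126, 2351, 189 and 1615. Per kilobase the highest LZ messages were mt-Co1 at 65127, the pseudogene Gm13988 at 61388, Gm42418 at 56185 and the pseudogene Gm11331 at 43882. Gm13988 and Gm11331 each have 288 bases of exon and stood at 303 and 72.1 per kilobase in PD, and reads shared with near-identical copies make both values uncertain.

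The 15 largest rises among genes of at least 1000 counts had log2 fold changes of 11.06 to 11.90. They are Slco6c1, a testis anion transporter, March10 and Fbxw10, components of ubiquitin ligases, Tmbim7, the poly(A)-binding protein Pabpc2, the peroxiredoxin Prdx6b, the centrin Cetn1, the sperm surface proteins Adam3 and Adam5, Slc6a21, Toporsl, the gluconeogenic enzyme Fbp1, Zbbx, Pebp4 and Mroh2b. March10 was counted at 6.95, 9.39 and 1.15 in LZ and at 19743, 20767 and 19476 in PD. Mroh2b, a HEAT-repeat protein, was counted at 16.5, 7.04 and 9.18 in LZ and at 24592, 23777 and 23660 in PD. Slc6a21, of a family of transporters, was counted at 5.22, 7.04 and 2.29 in LZ and at 13357, 13932 and 13274 in PD. All 3 were thus close to background in LZ and above 10000 in every PD library, with limma adjusted p of 2.2e-07, 2.02e-07 and 1.08e-06. Slco6c1 had 1 raw count in LZ and stood at 4916 ± 143 in PD. None of the 15 is X-linked.

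The 15 largest falls ran from -10.03 to -8.74 and held 9 X-linked genes, among them Atp6ap1, an accessory subunit of the proton pump of vesicles, the early meiotic cyclin Ccnb3, Pnma5, Tktl1, related to transketolase, the purine salvage enzyme Hprt, Hccs, which attaches haem to cytochrome c, Tsr2 and Mmgt1. The autosomal ones were Prss50, a protease-like protein of spermatocytes, Cpne3, a copine, Furin, a proprotein convertase, Ddit4, an inhibitor of mTORC1, Elavl3, an RNA-binding protein best known from neurons, and H2-D1, a class I histocompatibility antigen. Ccnb3 was counted at 18353, 14729 and 16859 in LZ and at 37.3, 17.2 and 34.8 in PD. Elavl3 was counted at 6273, 5460 and 5211 in LZ and at 4.66, 19.4 and 11.9 in PD. H2-D1 was counted at 4009, 4122 and 3362 in LZ and at 9.32, 6.86 and 7.63 in PD. The stages did not overlap for any of them, and the falls were 560-fold, 471-fold and 483-fold. Furin fell 925-fold, from 1848 ± 519 to 2.00 ± 0.733, and Prss50 849-fold, from 8449 ± 1799 to 9.95 ± 2.93.

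**Figure D3:**
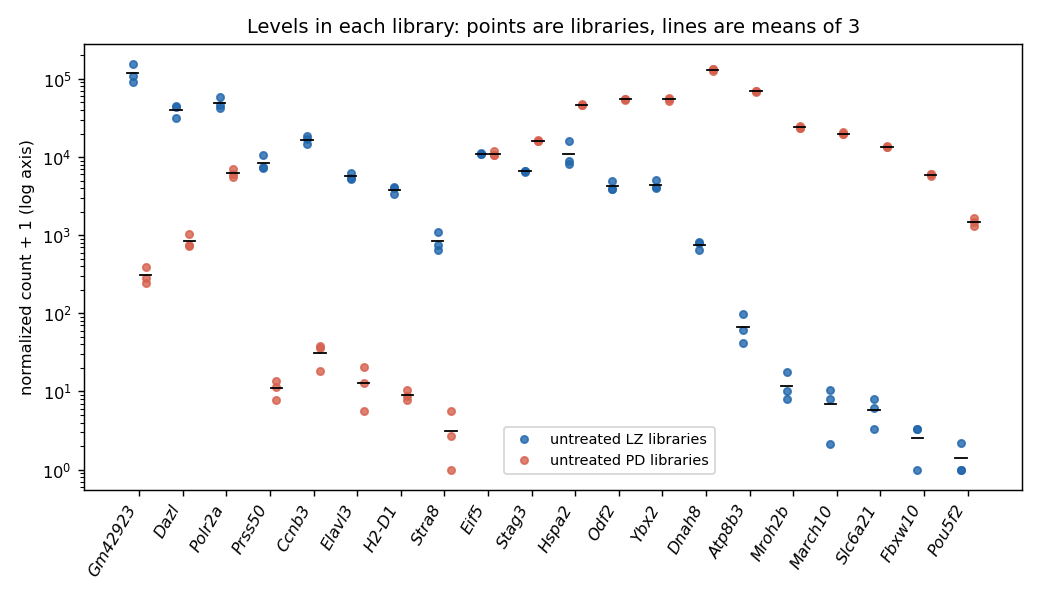
Normalized count + 1 (log axis) of 20 named genes in each untreated LZ library (blue) and PD library (red); points are libraries and short lines the means of 3. Groups overlap for Eif5 alone among the 20, and the genes to its left fall by up to 849-fold. Those to its right rise, some from high LZ means (Ybx2, 4433) and Pou5f2, at the far right, from near 1.

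Promoters of genes that moved in opposite directions differed in composition. The 250 bases before the start site were taken from RefSeq (GRCm38.p6) for protein-coding genes, and 10871 of 13189 tested genes considered had one. Genes that rose at least 64-fold had a median observed-over-expected CpG ratio of 0.296 (955 promoters), against 0.710 over all tested genes and 0.741 over autosomal genes that fell at least 64-fold (159 promoters). The GC box, GGGCGG, was found on either strand in 26.7%, 55.8% and 70.4% of these promoters, and in 32.9% of all 27025 promoters in the table. The X-box core bound by RFX factors, GTTGCCA, was found in 8.38% of the promoters of the strongest rises, 3.84% of those of all tested genes and 3.69% of all promoters. The MYB site, GGCAGTT, was found in 6.81%, 2.98% and 3.32%, and in 1.26% of those of the strongest autosomal falls. X-linked genes that fell at least 4-fold held it in 5.28% of 322 promoters. MYB sites matter in this tissue as background, since A-MYB (Mybl1) drives transcription at pachytene. These shares describe letters in a window, are untested and do not show binding.

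In all, 6 promoters are shown in full, 3 of the largest rises and 3 of the largest falls, picked from those that hold a searched motif. Others with such a motif are not shown, among them the rises March10, Tmbim7, Toporsl and Fbp1 and the fall Hprt. Capitals mark the GC box, MYB, X-box core, CRE core (TGACG), TATA box (letters TATAAA) and CCAAT box motifs on either strand, the last base lies next to the start site, and the CRE core is also part of a whole CRE. Fbxw10 (chr11:62846873-62847122, plus strand), Mroh2b (chr15:4898487-4898736, plus) and Slc6a21 (chr7:45282623-45282872, plus) are rises.
Fbxw10: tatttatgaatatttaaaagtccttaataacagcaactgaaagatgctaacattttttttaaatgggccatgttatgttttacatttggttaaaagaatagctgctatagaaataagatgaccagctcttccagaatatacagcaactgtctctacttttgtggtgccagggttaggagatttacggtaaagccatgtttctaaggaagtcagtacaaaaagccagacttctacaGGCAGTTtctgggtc
Mroh2b: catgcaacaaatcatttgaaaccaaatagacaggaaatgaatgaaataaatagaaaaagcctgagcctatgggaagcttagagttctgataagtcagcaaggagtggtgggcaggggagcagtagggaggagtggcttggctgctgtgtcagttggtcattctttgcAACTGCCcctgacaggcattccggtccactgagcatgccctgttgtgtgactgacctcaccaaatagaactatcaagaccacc
Slc6a21: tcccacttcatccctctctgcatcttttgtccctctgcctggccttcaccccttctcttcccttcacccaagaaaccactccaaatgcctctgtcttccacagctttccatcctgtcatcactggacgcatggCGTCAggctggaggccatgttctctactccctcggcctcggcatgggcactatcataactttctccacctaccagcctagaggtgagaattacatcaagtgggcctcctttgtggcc
Ccnb3 (chrX:7041620-7041869, minus strand), Elavl3 (chr9:22052024-22052273, minus) and H2-D1 (chr17:35262844-35263093, plus) are falls.
Ccnb3: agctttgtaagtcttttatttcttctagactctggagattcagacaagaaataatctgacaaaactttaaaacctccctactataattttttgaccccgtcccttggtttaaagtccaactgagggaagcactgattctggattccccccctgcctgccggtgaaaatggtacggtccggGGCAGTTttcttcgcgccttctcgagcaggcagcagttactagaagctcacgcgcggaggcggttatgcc
Elavl3: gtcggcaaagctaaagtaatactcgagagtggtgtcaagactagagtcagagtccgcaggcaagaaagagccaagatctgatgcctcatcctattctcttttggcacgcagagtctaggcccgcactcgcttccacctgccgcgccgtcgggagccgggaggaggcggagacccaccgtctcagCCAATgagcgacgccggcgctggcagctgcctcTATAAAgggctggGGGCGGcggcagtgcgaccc
H2-D1: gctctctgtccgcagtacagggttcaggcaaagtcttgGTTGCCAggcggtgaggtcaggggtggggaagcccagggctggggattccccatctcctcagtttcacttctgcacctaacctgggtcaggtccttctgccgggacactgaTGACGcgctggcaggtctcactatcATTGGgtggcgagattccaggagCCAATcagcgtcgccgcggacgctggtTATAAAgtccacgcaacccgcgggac
Fbxw10 and Mroh2b hold a MYB site, but so do Ccnb3 and Hprt, which fell. H2-D1 holds an X-box core together with a TATA box and CCAAT boxes. As the 6 promoters were picked, they cannot show whether a motif sorts genes by direction.

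Among regulators, those of the spermatogonium and of meiotic entry fell for the most part, while those of the later programme had shares close to those over all genes (51.0% higher and 38.7% lower). Of 29 entry regulators 18 fell and 7 rose, with a median log2 fold change of -2.02. Falls included Stra8, its partner Meiosin (Gm4969) from 2071 ± 165 to 16.3 ± 8.39, the stem cell factor Etv5 from 537 ± 36.4 to 9.76 ± 2.65 and Sohlh2, a bHLH factor of differentiating spermatogonia, from 1681 ± 109 to 14.8 ± 0.369. Meioc, which keeps cells in prophase, fell less, from 12599 ± 1856 to 5255 ± 1278. Id4, an inhibitor of bHLH factors used as a stem cell marker, rose 4.59-fold to 942 ± 25.5, and Dmrtb1 rose from 554 ± 113 to 16053 ± 1433. Of 47 pachytene and spermatid regulators 27 rose and 17 fell, with a median of 0.94. Rfx4, of the family that binds X-boxes, rose 542-fold to 2341, Hsfy2, a heat-shock-factor relative, from 0 in each LZ library to 1089 ± 179, and Fhl5, a coactivator of the factor CREM, from 0.672 ± 0.598 to 1002 ± 166. Taf7l and Zfy1, on X and Y, fell from 14635 ± 1050 to 253 ± 21.2 and from 1287 ± 413 to 29.6 ± 8.59. Kctd19 rose 4.75-fold to 15328 ± 535, and Brdt, the testis bromodomain protein, had a log2 fold change of 0.48 that was -0.0018 with total-count scaling.

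Genes of the general machinery that makes and processes RNA mostly fell. Of 56 genes of RNA polymerase II and its general factors 34 fell and 15 rose, with a median of -0.70, while over all genes 38.7% fell and 51.0% rose. The X-linked Taf1, the core of TFIID, was counted at 1951, 1890 and 1822 in LZ and at 3.49, 6.86 and 5.93 in PD. Brd3, a bromodomain protein, went the other way, at 478, 341 and 310 in LZ and 5066, 5371 and 5226 in PD. In both cases the stages were far apart with tight groups, and Brd2, a relative of Brd3, fell 2.00-fold to 7856 ± 586. The mediator subunit Med14 and Taf9b, both X-linked, fell from 980.0 ± 129.6 to 55.9 ± 21.3 and from 4535 ± 504 to 123 ± 14.8, while the polymerase subunit Polr2i rose 9.87-fold.

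Of 63 spliceosome and hnRNP genes 45 fell and 12 rose, with a median of -1.09, while over all genes 38.7% fell and 51.0% rose. Celf1, a regulator of splicing and message decay, fell from 6887 ± 699 to 649 ± 83.0, the X-linked Rbmx from 2035 ± 431 to 17.98 ± 2.63, and Srrm2, a large spliceosome protein, 2.30-fold to 8686 ± 1090. Khdrbs3, a STAR-family splicing regulator, rose from 17.7 ± 6.02 to 1950 ± 142, and Sf3b2, of the U2 particle, 2.31-fold to 6360 ± 389.7. Germ cell RNA-binding and storage proteins went both ways, 25 of 60 up and 31 down, with a median of -0.40. Cpeb1, which binds cytoplasmic polyadenylation elements, was counted at 2692, 2226 and 2468 in LZ and at 12.8, 10.3 and 17.8 in PD. Tdrd6, a Tudor protein of the chromatoid body, rose from 39.6 ± 21.5 to 32782 ± 825, and the testis poly(A)-binding proteins Pabpc2 and Pabpc6 to 25672 ± 1200 and 22280 ± 1904. Pabpc1, the general form, stood at 77167 ± 11878 in LZ and 102009 ± 6290 in PD, and its log2 fold change of 0.41 was -0.069 with total-count scaling. Reads shared between the Pabpc genes make the values of single members uncertain.

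Of 53 translation factors 28 fell and 19 rose, with a median of -0.38, while over all genes 38.7% fell and 51.0% rose. The paired X and Y genes Eif2s3x and Eif2s3y, which encode a subunit of the initiator tRNA complex, fell from 597 ± 78.1 to 7.34 ± 1.83 and from 1979 ± 316 to 304 ± 17.2. Eif2b3 and Eif2b5, subunits of the same exchange factor, moved in opposite directions, from 531 ± 126 to 24.0 ± 8.16 and from 361 ± 68.7 to 2237 ± 47.2. Eef1a1, the elongation factor, changed little, with a log2 fold change of -0.24 and an adjusted p of 0.0133.

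Cohesin, condensin and shugoshin genes fell more often than they rose, 20 of 31 against 7, with a median of -0.74, while over all genes 38.7% fell and 51.0% rose. Rad21l, a kleisin of early prophase, was counted at 563, 618 and 698 in LZ and at 1.16, 0 and 0 in PD. Rec8, the other meiotic kleisin, was counted at 61.7, 96.2 and 91.8 in LZ and at 711, 501 and 436 in PD. Stag3, a subunit that both complexes share, was counted at 6570, 6680 and 6343 in LZ and at 15881, 16354 and 16225 in PD. The kleisins thus moved in opposite directions without overlap, and Stag3 rose 2.47-fold. Meikin, which protects sister centromeres, rose 5.01-fold to 365 ± 29.1, whereas Sgo1, the mitotic shugoshin, fell from 361 ± 51.4 to 21.2 ± 12.4, the acetyltransferase Esco2 from 929 ± 109.8 to 16.5 ± 4.43 and the X-linked Smc1a 88.5-fold. Smc4, a condensin subunit, did not pass the test (adjusted p = 0.225), with PD libraries spread from 8049 to 15879 and LZ libraries from 14439 to 16844; it was called lower with only the 6 untreated libraries fitted (adjusted p = 0.0234) and with total-count scaling (adjusted p = 0.024).

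Of 39 histone and packaging genes 20 rose and 15 fell, close to the shares over all genes (51.0% higher and 38.7% lower). With total-count scaling 18 rose and 18 fell. The spermatid linker histones Hils1 and H1f7 were at 1975 ± 431 and 2443 ± 246 in PD against 0.580 ± 1.004 and 1.55 ± 1.77 in LZ. Protamine 3 (Prm3) reached 577 ± 62.4, and Nasp, a histone chaperone, rose 4.25-fold to 33321 ± 5271. The X-linked Atrx, a chromatin remodeller, fell from 888 ± 180.2 to 1.23 ± 1.27, H2bfm fell 48.0-fold, and H3f3b, a source of the variant H3.3, fell 2.45-fold to 7467 ± 181. Poly-A capture sees few of the replication-dependent histone messages, which lack a tail. Of 55 genes of the nuclear envelope and pore 28 rose and 23 fell, again close to the shares over all genes. With total-count scaling 21 rose and 27 fell. Syne2, a nesprin that links nucleus and cytoskeleton, rose from 28.7 ± 4.79 to 3215 ± 137, and the spermatid envelope proteins Sun3 and Sun5 stood at 702 ± 81.7 and 448 ± 62.4 in PD with 3 and 2 raw counts in all of LZ. The pore subunit Seh1l fell 40.9-fold to 35.6 ± 7.35.

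Most genes of the sperm tail rose. Of 62 axoneme, centriole and cilium genes 58 rose and 2 fell, with a median of 6.39, and their share of counts was 0.143% in LZ and 2.99% in PD. Of the 62, 14 reached a mean of 10 in PD alone and 1 in LZ alone. Spag17, of the central pair, was counted at 6.95, 4.69 and 9.18 in LZ and at 12473, 14333 and 15841 in PD. Dnah17, an outer-arm dynein, rose from 178 ± 65.7 to 38043 ± 1185, Dnah6, an inner-arm dynein, from 3.98 ± 3.45 to 7213 ± 365 and Tekt3, a tektin, from 1.84 ± 0.838 to 4647 ± 266. The genes that fell were Cetn2, an X-linked centrin, from 779.8 ± 149 to 9.11 ± 7.67, and Cep135, a centriole protein, 1.94-fold; Cetn1, the autosomal testis centrin, stood at 2.79 ± 1.71 in LZ and 9483 ± 446 in PD. Of 40 tubulin genes and modifying enzymes 29 rose and 8 fell, with a median of 3.13. Of the 40, 7 reached a mean of 10 in PD alone and 3 in LZ alone. Tuba3b and Tuba3a, near-identical testis alpha tubulins whose reads may be shared, rose 24.2-fold and 39.6-fold to 29269 ± 1521 and 28432 ± 1244. The glutamylase Ttll6 and Ttll10, of the glycylase branch of that family, rose to 4476 ± 209 and 1785 ± 112, while Tubb5, a general beta tubulin, fell 65.0-fold and the X-linked tubulin deacetylase Hdac6 from 996 ± 70.4 to 1.16 ± 1.16. Actin genes went both ways, 25 of 56 up and 28 down, with rises of the actin relatives of the sperm head Actl7a to 1925 ± 239, Actl7b to 7444 ± 1173 and Actrt2 to 1790 ± 313, with the capping subunit Capza3 at 0 in each LZ library and 1003 ± 164 in PD, at least 944-fold higher if 3 counts are taken as the limit for the LZ group.

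Most acrosome genes rose too. Of 52 acrosome and egg-binding genes 49 rose and 2 fell, with a median of 8.21, and 31 of the 52 reached a mean of 10 in PD alone. Acr, the acrosomal protease acrosin, was counted at 4289, 4483 and 4184 in PD and had 3 raw counts in all of LZ. Dpy19l2, which anchors the acrosome, rose from 3.95 ± 2.52 to 8304 ± 201, and Crisp2, a secretory protein of the acrosome, from 38.7 ± 7.35 to 30516 ± 1750. The 2 that fell, Tex101 and Ly6k, are related surface proteins that act together, and Tex101 fell from 25586 ± 1973 to 1850 ± 283. Of 34 ion channels and transporters of sperm 31 rose and 3 fell, with a median of 7.15. Of the 34, 16 reached a mean of 10 in PD alone and 2 in LZ alone. Monocarboxylate carriers moved in opposite directions. Slc16a7 was counted at 5.22, 2.35 and 2.29 in LZ and at 6644, 5797 and 6117 in PD. Slc16a1 was counted at 3442, 2570 and 2736 in LZ and at 184, 172 and 273 in PD. The libraries of the stages did not overlap for either carrier. The sperm sodium-proton exchanger Slc9c1 rose from 3.74 ± 3.48 to 6423 ± 617 and the T-type calcium channel Cacna1h from 42.9 ± 2.11 to 11949 ± 335.

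Of 57 kinases, phosphatases and genes of cAMP signalling 36 rose and 14 fell, with a median of 2.94, while over all genes 51.0% rose and 38.7% fell. Of the 57, 13 reached a mean of 10 in PD alone, and so had to rise, and 0 in LZ alone. Akap12, a scaffold for protein kinase A, rose from 59.7 ± 21.4 to 39291 ± 904, Ppp3r2, the testis regulatory subunit of calcineurin, from 8.70 ± 3.01 to 12315 ± 526 and Pde10a, a phosphodiesterase, from 3.28 ± 2.03 to 3242 ± 467. The general catalytic subunits Ppp1ca and Prkacb fell, from 1566 ± 218 to 11.1 ± 5.93 and from 1556 ± 118.4 to 43.3 ± 3.29.

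Protein turnover showed no prevailing direction, while over all genes 51.0% rose and 38.7% fell. Of 76 ubiquitin ligases and related genes 36 rose and 35 fell, and with total-count scaling 28 rose and 43 fell. Trim69 and Ube2d2b, a ligase and a conjugating enzyme of the testis, rose from 2.03 ± 0.754 to 4547 ± 89.0 and from 15.4 ± 2.51 to 9545 ± 285, and the large ligase Ubr4 rose with a log2 fold change of 1.71. The X-linked deubiquitinase Usp26 fell from 8660 ± 953 to 50.01 ± 8.67 and Cul7, a cullin, from 1556 ± 495 to 7.64 ± 1.31. Of 45 autophagy and lysosome genes 20 rose and 21 fell. Atg16l1, which places LC3 on membranes, fell 105-fold to 11.7 ± 1.27, and Tfe3 and Lamp2, both X-linked, fell 61.7-fold and 61.3-fold, while Gabarapl1, an LC3 relative, rose 15.6-fold. Rb1cc1, which starts autophagosomes, was counted at 4063, 3324 and 4379 in LZ and at 10012, 13467 and 15998 in PD.

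**Figure D4:**
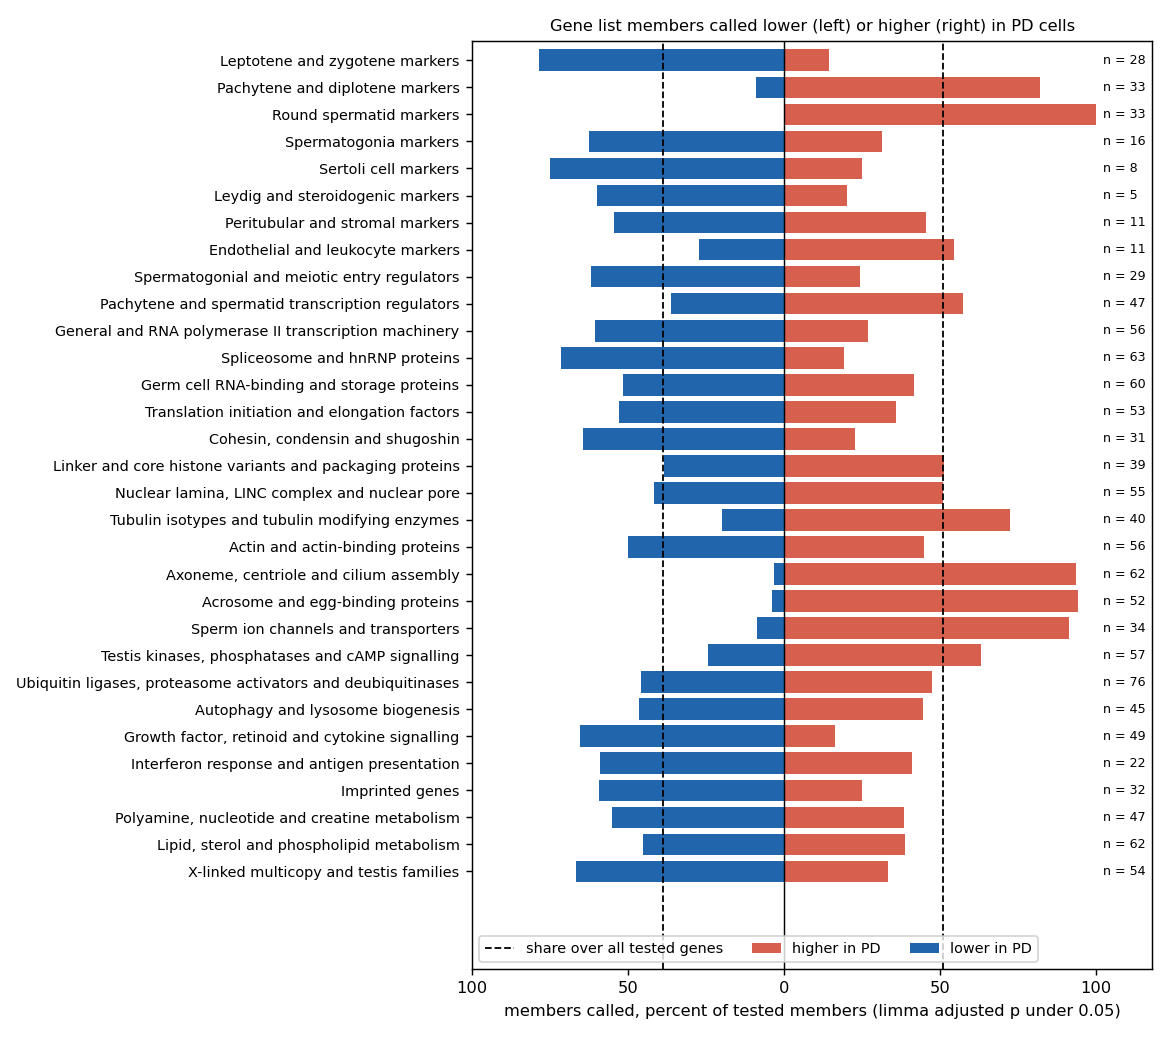
Share of the tested members of each gene list called lower (blue, left) or higher (red, right) in PD at a limma adjusted p under 0.05; n is the number tested and dashed lines mark the shares over all genes, 38.7% lower and 51.0% higher. Axoneme, acrosome and sperm transporter lists lie far to the right, and growth factor signalling and spliceosome lists to the left.

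Receptors and signal transducers mostly fell. Of 49 genes of growth factor, retinoid and cytokine signalling 32 fell and 8 rose, with a median of -2.09, while over all genes 38.7% fell and 51.0% rose. Of the 49, 11 reached a mean of 10 in LZ alone and had to fall, and 5 in PD alone and had to rise. Igf2r, which clears IGF2, was counted at 4746, 3675 and 3764 in LZ and at 32.6, 25.2 and 31.4 in PD. The Wnt coreceptor Lrp6 and its effector beta-catenin (Ctnnb1) fell from 2179 ± 353 to 24.8 ± 7.23 and from 11382 ± 1562 to 1013 ± 89.5, the kinase Jak2 fell 101.7-fold and Smo, the Hedgehog transducer, 100.9-fold. Smad1, a transducer of BMP signals, rose 30.8-fold to 796 ± 44.7. Aldh1a2, which makes retinoic acid, stood at 3214 ± 279.8 in LZ and 3692 ± 329 in PD; its call (log2 fold change 0.20, adjusted p = 0.0449) was lost without LZ B or C or PD A or B (adjusted p = 0.0797, 0.172, 0.106 and 0.187), and with only the 6 untreated libraries fitted (adjusted p = 0.804), and the sign was negative with total-count scaling. Of 22 genes of interferon response and antigen presentation 13 fell and 9 rose. H2-K1, like H2-D1 a class I antigen, fell from 11939 ± 955 to 477 ± 49.7, and Ifngr1, a receptor of interferon gamma, fell 61.5-fold, while Tapbp, which loads peptides on class I antigens, and the RNA-activated kinase Eif2ak2 rose 5.86-fold and 21.6-fold. Reads shared between class I genes make their single values uncertain.

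Of 32 imprinted genes 19 fell and 8 rose, with a median of -1.76, while over all genes 38.7% fell and 51.0% rose. Gnas, a G protein subunit, was counted at 7106, 5276 and 5373 in LZ and at 90.9, 86.9 and 85.6 in PD. Peg10, a retrotransposon-derived gene, was counted at 550, 438 and 497 in LZ and at 1.16, 0 and 0 in PD. Mirg, a noncoding RNA of the Dlk1 domain, went the other way, at 1.74, 2.35 and 2.29 in LZ and 328, 343 and 364 in PD. The 3 genes thus had groups far apart but not a common direction, and Zdbf2 fell 4.66-fold and Slc22a18 rose to 313 ± 39.7.

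Metabolic genes were mixed too. Of 47 genes of polyamine, nucleotide and creatine metabolism 26 fell and 18 rose, with a median of -1.01, while over all genes 38.7% fell and 51.0% rose. Hprt, for purine salvage, was counted at 2077, 1663 and 1887 in LZ and at 2.33, 2.29 and 3.39 in PD. Prps1l1, a testis copy of the enzyme that makes the phosphoribosyl donor, was counted at 5.22, 3.52 and 5.73 in LZ and at 5109, 5243 and 4792 in PD. Atic, of purine synthesis, fell from 731 ± 54.1 to 1.05 ± 0.177, and Gmps, which makes GMP, rose 3.63-fold to 8192 ± 261, so steps of purine supply moved in both directions. Odc1, of polyamine synthesis, had a log2 fold change of 0.44 that was -0.035 with total-count scaling. Of 62 genes of lipid metabolism 28 fell and 24 rose, with a median of -0.07. Hadha, of fatty acid oxidation, rose 6.19-fold to 9569 ± 78.7, Agpat1, of phospholipid synthesis, 2.87-fold to 7551 ± 455 and Sgms2, a sphingomyelin synthase, 62.6-fold to 587 ± 94.7. Plcz1, the sperm factor that activates the egg, reached 1330 ± 181 from 0.290 ± 0.502, and Ugt8a, which makes galactosylceramide, fell 125-fold.

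The X chromosome stood apart from every autosome. Its 608 tested genes had a median log2 fold change of -4.52, while the medians of the 19 autosomes ran from 0.10 to 1.24. Of the 608 genes 458 fell and 126 rose. Among genes with a mean of at least 100 over the 6 libraries, 256 of 289 X-linked and 4010 of 9779 autosomal genes fell, and 195 and 547 of them by at least 16-fold. The falls extended along the chromosome, with medians of -5.10 to -3.36 in 9 successive segments of 20 Mb. By LZ level, as a description only since the split uses one side of the contrast, 310 of 318 X-linked genes with at least 100 counts in LZ fell and 1 rose, and all 104 with at least 1000 fell. At the same levels 4422 of 7825 autosomal genes (56.5%) and 2064 of 3150 (65.5%) fell. Fmr1, an RNA-binding translation regulator, fell from 15276 ± 2776 to 90.6 ± 13.05.

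**Figure D5:**
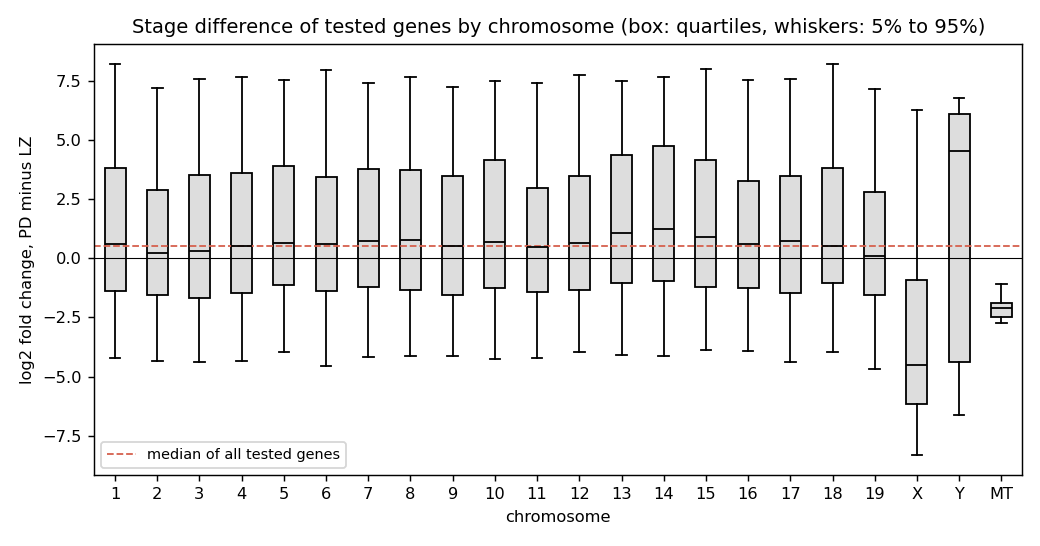
Log2 fold change (PD minus LZ, y axis) of tested genes by chromosome; boxes show quartiles, whiskers the range from 5% to 95%, and the dashed line the median of all genes. The X median of -4.52 lies below all autosomal medians, and the Y box spans both directions.

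The exceptions on the X were of 2 kinds. Of the 126 that rose, 105 had an LZ mean under 10 and so had to rise to be kept. The rises include the fibrous sheath scaffold Akap4, at 18.3, 8.21 and 3.44 in LZ and 6997, 5470 and 6039 in PD. Tsga8, a spermatid nuclear protein, was counted at 65.2, 44.6 and 42.4 in LZ and at 2667, 1854 and 1774 in PD. Library A was the highest of its group in both genes and both stages. Cylc1, a protein of the sperm head, Tex13a, Tex13c1, Satl1, Cpxcr1, Cypt2, Fam122c and Ctag2 also rose, each from under 1 to means of 136 to 254. The second kind were genes with at least 100 counts in LZ that were not called lower. Efhc2 was the 1 gene with at least 100 LZ counts that rose, at 193, 188 and 233 in LZ and 309, 239 and 304 in PD, but its call was lost with only the 6 untreated libraries fitted (adjusted p = 0.125) and its log2 fold change was -0.0096 with total-count scaling. Tent5d, a testis poly(A) polymerase, was counted at 378, 224 and 471 in LZ and at 363, 296 and 393 in PD. Bcorl1, a corepressor, was counted at 134, 128 and 136 in LZ and at 162, 134 and 135 in PD. The libraries of the stages overlapped for Tent5d and Bcorl1, and neither passed the test (adjusted p = 0.918 and 0.506); nor did Ribc1, Rp2 and Acot9. Acot9 was called lower with the replicate block (adjusted p = 0.0283), with only the 6 untreated libraries fitted (adjusted p = 0.00843) and without PD A (adjusted p = 0.0197), and with total-count scaling Acot9, Bcorl1, Ribc1 and Rp2 were all called lower. Of 54 members of X-linked multicopy and testis families 36 fell and 18 rose. Only 11 of the 54 reached a mean of 10 in both stages. Another 29 reached it in LZ alone and had to fall, and 14 in PD alone and had to rise. Among the falls were Maged1, from 9108 ± 947 to 200.2 ± 31.6, Maged2, Nkap and Rhox13. Counts of multicopy families are uncertain where copies share reads. Of 32 Y-linked genes 12 fell and 20 rose, and 19 of the 20 had an LZ mean under 10; Usp9y fell from 1845 ± 510.2 to 103 ± 41.8.

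Of 2419 lncRNAs 1749 rose and 428 fell, with a median of 3.77, and lncRNAs with a mean of at least 10 numbered 1142 in LZ and 2686 in PD. Many lncRNAs were therefore kept through their PD level alone and had to rise; the 787 that reached a mean of 10 in both stages had a median of 0.41, and the 9935 such protein-coding genes had a median of -0.08. Of 13518 protein-coding genes 6437 rose and 5773 fell, with a median of 0.18, and 11663 reached a mean of 10 in LZ and 12631 in PD. Protein-coding genes took 96.1% of counts in LZ and 96.0% in PD, so the lncRNAs added many genes but few counts, 2.04% and 2.97%. Among lncRNAs, Gm26917 fell from 20940 ± 4140 to 989 ± 149.5. Of 575 loci of the TEC class 271 (47.1%) fell and 194 (33.7%) rose, while over all genes 38.7% fell and 51.0% rose. Of 380 processed pseudogenes 195 (51.3%) rose and 100 (26.3%) fell, against 51.0% and 38.7% over all genes. Gm7444 rose from 7.44 ± 1.91 to 13466 ± 305, while Gm9805 was counted at 1371, 2237 and 3251 in PD. Reads from parent genes may be counted on such copies. Of the 10 tested mitochondrial messages 9 fell, with a median of -2.09.

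Some of the most counted genes differed little, and the sign turned with total-count scaling for Mdc1, Hnrnpu, Calm3 and Sbno1. Eif5, a translation initiation factor, stood at 11057 ± 283 in LZ and 11071 ± 885 in PD (adjusted p = 0.99), Mdc1, which spreads the DNA damage mark over chromatin, at 13240 ± 1038 and 13857 ± 1209 (adjusted p = 0.44), and Hnrnpu at 16470 ± 2190 and 17233 ± 1472 (adjusted p = 0.507). Calm2, Calm3, Lamp1, Sbno1 and Hsp90aa1 also had log2 fold changes between -0.22 and 0.19 that did not pass the test, which does not show that they were equal. With total-count scaling all 8 of these genes were called lower. With only the 6 untreated libraries fitted Calm2, Hsp90aa1 and Lamp1 were called lower (adjusted p = 0.0052, 0.00446 and 0.00324), Calm2 and Hsp90aa1 also with median-of-ratios scaling (adjusted p = 0.0116 and 0.0055), Calm2 without LZ B (adjusted p = 0.0246) and Hsp90aa1 without PD C (adjusted p = 0.0475), and Calm3 was called higher without LZ A (adjusted p = 0.000734).

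The authors' deposited table holds its own comparison of these groups. Among the 17187 genes, the authors' deposited table called 8641 higher and 6748 lower in PD, and 8614 and 6609 of these were called in the same direction here. No gene was called in opposite directions by the authors' deposited table and here.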

How the data were processed

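The members and gene lists were chosen with earlier results of these data known. The authors deposited 1 table of whole-number counts per gene with their own comparisons; 6255 of its 55471 genes hold a question mark in place of values and were left out. Per the labels' protocols, poly-A RNA was captured and the library kit was stranded. Tools in the submitters' processing notes are HTSeq 0.6.0 and TopHat2 2.1.1, with DESeq2 1.22.2, bcl2fastq 2.18.0.12 and cutadapt 1.18, on build GRCm38; the sources used here give neither their order, the annotation nor the strand setting. The deposited table's log2 fold changes and p-values are the authors' and serve only for the last comparison. Because of the question marks the count columns were treated as general values and no count model was run. Counts were divided by TMM library factors computed over all 12 libraries. Then log2(normalized count + 1) was fitted with limma 3.58.1 (trend and robust options, R 4.3.3) over 12 libraries in 4 groups. Benjamini-Hochberg adjustment ran over the 17187 genes with a mean of at least 10. Libraries A, B and C are named by column codes, which match no labelled replicate number. P-values set the difference between the stages against the spread of libraries within the 4 groups, as moderated by limma. Named genes are the 15 largest rises and falls, the 15 most counted genes of each stage, the extremes and most counted members of each list, and X-linked exceptions. Folds of single genes are ratios of mean normalized counts, and against 0 counts they are bounds from a floor of 3 counts over the group. Classes of genes by fold, also those of the promoters, were cut on the limma log2 fold change of log2(normalized count + 1). Promoters of chromosome 18 were left out. The fit was also run on simulated counts in which few genes changed, as many up as down. That run cannot show how the fit performs where most genes differ, as here. Scaling, pseudocount, filter, weighting and library choice were varied. Some genes that the naming rule selects are not reported here.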

Additional observations from a re-analysis of the deposited data

How the results depend on the processing

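The numbers of genes higher and lower in PD stayed within 1.5 times of 8772 and 6645 under every setting run, with ranges of 8313 to 9068 and 6243 to 6684 when 1 library was left out; total-count scaling gave 7660 and 7900 and a test against a fold of 2 gave 6944 and 4549. The median log2 fold change of all genes, 0.51, was -0.059 with total-count scaling, 0.30 with no filter, 0.36 with a mean of at least 50, 0.30 with only the 6 untreated libraries and 0.38 to 0.68 with 1 library left out; the last 3 were added after seeing the data. At least 16-fold rises numbered 2510 with a pseudocount of 5, 2544 with a mean of at least 50 and 3718 to 4090 with 1 library left out, and such falls 842 with a pseudocount of 5 and 1236 to 1364. X-linked rises numbered 256 with no filter, 49 with a mean of at least 50 and 112 to 135 with 1 library left out. Genes at 0 in all LZ libraries numbered 2966, 258 and 791 to 1415 under these settings, and at 0 in all PD libraries 986, 24 and 92 to 213; fewer genes or libraries enter by construction. With total-count scaling 12 named genes turned to Aldh1a2 -0.28, Bcorl1 -0.37, Brdt -0.0018, Calm3 -0.29, Efhc2 -0.0096, Hnrnpu -0.41, Mdc1 -0.42, Odc1 -0.035, Pabpc1 -0.069, Ribc1 -0.31, Rps4l -0.47 and Sbno1 -0.35; the cause was not tested. With a replicate block by column code 8817 genes rose and 6714 fell; deviations of libraries with the same code correlated at 0.036, 0.035 and 0.102, each above the pairs with different codes (-0.064 to 0.024) but not all over 0.1, so the codes were not treated as pairs; that each library correlated best with its own code is a hint from the data, not the design.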
